A study of Mus musculus with 4 samples.

Results

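The 10 genes described here, S100b, Fabp7, Gfap, Foxd3, Glul, Aatk, Ncam1, L1cam, Cdh2 and Cdh19, are used as markers of immature Schwann cells, of satellite glia and of glial adhesion. They were chosen by symbol, and each occurred on 1 of the 23282 rows of the deposited count tables. The cultures were explants of mouse dorsal root ganglia, the sensory ganglia beside the spinal cord, from C57BL/6 embryos at embryonic day 13. All were grown on Matrigel and moved to myelination medium at day in vitro (DIV) 8. Electrically stimulated (ES) cultures had 1 h of stimulation at 20 Hz and 50 mV/mm at 10 DIV, and control cultures had none. The 4 groups were ES at 19 DIV, control at 19 DIV, ES at 11 DIV and control at 11 DIV. Each group was 1 library from a pool of 3 explants, so no difference has a replicate check. Whole ganglia hold neurons, glia and connective tissue cells, and in such RNA fewer cells of a type and less RNA per cell cannot be told apart.

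Schwann cells arise from neural crest cells that travel along growing axons, pass through a precursor and an immature stage, and then either wrap 1 axon with myelin or hold several thin axons without myelin. Satellite glia come from the same crest cells and surround the cell bodies of sensory neurons. S100b, a calcium-binding protein, appears as precursors become immature Schwann cells, and Gfap, an intermediate filament protein, marks immature and non-myelinating Schwann cells. The adhesion molecules Ncam1 and L1cam sit on axons and on immature or non-myelinating Schwann cells, and myelinating Schwann cells carry little of them. Levels of Ncam1 and L1cam in whole ganglia thus cover neurons as well as glia.

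Totals were 5782834 to 7830950 reads per library. The libraries were made with a kit that reads the 3' end of each transcript, and levels are given as CPM, reads scaled to a common library size, with TMM factors. Such tags are counted per transcript and are not divided by gene length. The reads were clumped, and they are not independent molecules. From the share of genes with no read, 1 sampled molecule was estimated to stand for 104 to 158 reads, so a count of 100 reads can be 1 molecule and a count of 0 is weak evidence of absence. A floor of 3 reads was 0.376 to 0.518 CPM, and this floor and the counting intervals cover counting error only. The ribosomal RNA precursor Rn45s took 2.65% of the ES reads and 2.82% of the control reads at 19 DIV. At 11 DIV it took 3.08% of the ES reads and 5.18% of the control reads.

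Differences between 2 libraries were read with a pair of rules. By the size rule, the libraries had to differ by 2-fold or more, with 50 reads in the higher one and a 95% counting interval that excluded equality. It called 58.6% to 61.4% of all genes tested, so passing it says little. The spread-adjusted rule divided the counts by the spread seen between the same libraries in genes that averaged 500 to 3000 reads, a factor of 208 to 258, and asked for a 2-fold difference and a 99% interval that excluded equality. It called 0.259% to 0.618% of genes. Even against 0 reads, a gene higher in the library named first (ES or 19 DIV) needed 1616 to 2468 reads there to pass it. The reads needed by a gene lower in that library were not worked out. Aatk and Ncam1 had enough reads to pass as higher in every comparison, and L1cam only in ES against control at 11 DIV. The other 7 markers had too few reads to pass as higher in any comparison, even against 0 reads.

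Aatk was the most abundant marker and the only marker past the spread-adjusted rule, so its locus is shown. Aatk encodes a membrane-bound kinase of the nervous system, first described in dying myeloid cells. It lies on chromosome 11 at chr11:120007313-120047167 (GRCm38, minus strand). Its introns hold miR-338 on the same strand and miR-3065 on the opposite strand, and none of the 6 annotated Aatk transcripts that span them has an exon there. In the mouse, miR-338 promotes maturation of oligodendrocytes, the myelin-forming glia of the brain. The mature sequences from RefSeq (GRCm38.p6) follow with the seed, bases 2 to 8, in capitals. They share no seed, and miR-338-3p and miR-3065-5p are read from opposite strands of nearly the same bases.
mmu-miR-338-3p, chr11:120014781-120014802, minus strand: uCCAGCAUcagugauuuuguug
mmu-miR-338-5p, chr11:120014816-120014837, minus strand: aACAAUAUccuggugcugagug
mmu-miR-3065-5p, chr11:120014780-120014801, plus strand: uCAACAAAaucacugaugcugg
Mature miRNAs were not measured here, since the libraries count polyadenylated transcripts.

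SOX10 and EGR2 are the transcription factors that specify Schwann cells and drive their myelin genes, so the 250 bases before each annotated start were searched on both strands for the SOX motifs ACAAAG and ACAATG and for the EGR motif GCGNGGGCG. The SOX motifs share their first letters, and no 2 matches overlapped. Matches are given for the RefSeq start windows of 7 of the 10 markers, 11 windows in all. Cdh2, Ncam1 and Cdh19 are not covered. ACAAAG was in 16.5%, ACAATG in 10.7% and GCGNGGGCG in 4.70% of 32851 windows of the same length. Only Aatk had a SOX match among the 7 markers, and none had an EGR match. Aatk also had more windows than any other marker, some of them overlapping, and so more chances of a match. Its window at chr11:120041782-120042031 had no match. The outermost Aatk start had both SOX motifs, as reverse complements that begin 133 and 101 bases before the start. The start nearest to the miRNAs had ACAAAG 58 bases before it. The windows are printed 5' to 3' with the matches in capitals, beside that of S100b, which had no match and is the marker with the lowest counts at 19 DIV relative to 11 DIV. A match is a description of letters and not a bound site.
Aatk outer start, chr11:120047153-120047402, minus strand: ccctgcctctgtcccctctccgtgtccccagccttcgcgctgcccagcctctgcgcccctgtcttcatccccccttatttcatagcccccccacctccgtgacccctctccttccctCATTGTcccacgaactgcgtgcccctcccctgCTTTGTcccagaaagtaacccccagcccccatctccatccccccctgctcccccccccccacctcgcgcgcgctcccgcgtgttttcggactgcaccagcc
Aatk inner start, chr11:120017155-120017404, minus strand: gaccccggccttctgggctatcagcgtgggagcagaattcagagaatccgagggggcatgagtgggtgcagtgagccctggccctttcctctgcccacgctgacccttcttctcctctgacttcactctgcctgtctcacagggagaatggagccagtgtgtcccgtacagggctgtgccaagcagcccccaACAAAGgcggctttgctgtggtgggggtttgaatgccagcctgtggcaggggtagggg
S100b start, chr10:76253586-76253835, plus strand: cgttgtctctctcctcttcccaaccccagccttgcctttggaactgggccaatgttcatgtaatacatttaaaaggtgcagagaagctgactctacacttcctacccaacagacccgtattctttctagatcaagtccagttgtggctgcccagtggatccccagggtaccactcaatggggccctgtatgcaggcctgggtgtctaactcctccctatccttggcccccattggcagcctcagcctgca

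The levels did not bear out the label for every marker. Gfap, Fabp7 and Cdh19, which define immature or satellite glia in many studies, were at or near 0 in most libraries, while the general Schwann lineage factor Sox10 had 3711 to 5773 reads. At 19 DIV Gfap had 0 reads with ES against 21 without it, and at 11 DIV it had 0 in both libraries. Fabp7, a fatty acid-binding protein of glial precursors, had 4 reads in the ES library and 0 in control at 19 DIV, and 7 in ES and 0 in control at 11 DIV. Cdh19, a cadherin of Schwann cell precursors, had 0 reads in the ES library and 106 in control at 19 DIV, and 0 in both libraries at 11 DIV. All of these counts lie within the reads of about 1 molecule, so no difference is drawn from them. A count of 0 in these tables can also miss a gene that the cells need. Erbb3, the neuregulin receptor of Schwann cells, had 0 reads in 3 libraries and 2 in ES at 19 DIV.

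By mean CPM over the 4 libraries the order was Aatk (1399), Ncam1 (803), L1cam (239), Foxd3 (145), Cdh2 (102), S100b (80.0) and Glul (77.2), as the plot of levels by library shows. Among these 7, the ranges of neighbours in the order overlapped, except that Ncam1 (736 to 839 CPM) stood above L1cam (172 to 355 CPM) in every library. Aatk was at or above 96.6% to 99.8% of the rows with a read, depending on the library. The 10 markers summed to 3166 CPM in ES and 3446 in control at 19 DIV, and to 2948 in ES and 1843 in control at 11 DIV. Without Aatk the sums were 1472 CPM in ES and 1310 in control at 19 DIV, and 1649 in ES and 1375 in control at 11 DIV. Aatk made up 53.5% of the sum in ES and 62.0% in control at 19 DIV, and 44.1% in ES and 25.4% in control at 11 DIV.

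Aatk had 13525 reads in the ES library and 14722 in control at 19 DIV, and 7696 reads in the ES library and 2710 in control at 11 DIV. Its level was 1694 CPM in ES against 2136 CPM in control at 19 DIV, and 1299 CPM in ES against 468 CPM in control at 11 DIV. The library of control at 11 DIV was low and the other 3 were high. At 11 DIV, 1 day after stimulation, Aatk was 2.78-fold higher in ES than in control (95% spread-adjusted interval 1.44 to 5.69) and passed both rules. At 19 DIV it was at 0.793 times control (0.545 to 1.15) and passed neither. Between days, Aatk in control was 4.57-fold higher at 19 than at 11 DIV (2.43 to 9.35), past both rules, and in ES the fold was 1.30 (0.816 to 2.12), past neither.

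The ES fold of Aatk at 11 DIV was 3.50 times its ES fold at 19 DIV, with a 95% interval of 1.69 to 7.24 from the spread of both pairs on the log scale. Of the 6 markers with at least 50 reads in every library, Aatk was the 1 past a 2-fold and 99% interval rule for this ratio, against 0.724% of the 4975 genes with that many reads. The day fold of Aatk in ES was 0.286 times that in control (0.133 to 0.615). This ratio is the inverse of the first, formed from the same counts, and is not a further result. It too was past the rule, which 0.623% of those genes passed. These ratios and both calls rest on the library of control at 11 DIV. Without that library the remaining Aatk levels, 1299 to 2136 CPM, gave no call. The same library had the highest Rn45s share, and the part of that share in the result was not tested. With Rn45s left out of the scaling the log2 fold of ES against control at 11 DIV was 1.47, as it was with it. The 3' end of Aatk lies 530 bases from that of Baiap2 on the other strand, which had 356 to 883 reads, and the genes do not overlap in the annotation.

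Of 1355 other genes that averaged 1000 reads or more, with 50 or more in each library, those near in profile to Aatk included Tnfrsf21 and Lama2, with root mean square differences of 0.04 and 0.14 on the log2 scale. Tnfrsf21 is a death receptor also found in the nervous system, and Lama2 encodes a laminin chain of the basal lamina around Schwann cells. Tnfrsf21 had 281 CPM in ES and 383 in control at 19 DIV, and 221 in ES and 82.5 in control at 11 DIV. Like Aatk, it was lowest in control at 11 DIV. For Ncam1 the nearest genes were Rbbp4, Egr1 and Gm12338 (0.02 to 0.04), and for L1cam they were Fam168a, Rps10 and Trp53inp2 (0.11 to 0.12). Likeness over 4 libraries that share their depth and scaling is a description, and many genes can look alike by 4 values.

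The neural cell adhesion molecule Ncam1 (chr9:49502136-49798925, minus strand) varied least among the abundant markers. It had 6696 reads in the ES library and 5784 in control at 19 DIV, and 4739 in ES and 4261 in control at 11 DIV, with 736 to 839 CPM over the 4 libraries. The libraries were close together, with control at 11 DIV lowest. The fold of ES over control was 0.999 at 19 DIV (0.562 to 1.79) and 1.09 at 11 DIV (0.572 to 2.08). That of 19 over 11 DIV was 1.05 in ES (0.554 to 2.02) and 1.14 in control (0.602 to 2.20). All 4 intervals include equality, and a change of about 2-fold in either direction lies near their ends. Ncam1 has 6 annotated protein-coding transcripts with 6 different 3' ends, and the counts do not separate them.

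L1cam (chrX:73853778-73896105, minus strand), an adhesion molecule of axons and unmyelinated Schwann cells, had 1372 reads in the ES library and 1451 in control at 19 DIV, and 2105 in ES and 1261 in control at 11 DIV. ES at 11 DIV was high at 355 CPM, and the other libraries had 172 to 218 CPM. The ES library at 19 DIV was at 0.484 times the ES library at 11 DIV, past the size rule, but the spread-adjusted interval of 0.130 to 1.63 includes equality. In control the same fold was 0.967 (0.259 to 3.74). ES against control gave 0.816 at 19 DIV (0.217 to 3.03) and 1.63 at 11 DIV (0.541 to 5.42). L1cam passed the spread-adjusted rule in no comparison. It had enough reads to pass as higher only in ES against control at 11 DIV. The reads needed to pass as lower, as for ES at 19 against 11 DIV, were not worked out.

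Like L1cam, the summed neuron markers were highest in ES at 11 DIV and lowest in ES at 19 DIV. The summed level of 20 neuron markers was 2851 CPM in ES and 7052 in control at 19 DIV, and 7451 in ES and 4952 in control at 11 DIV. At 19 DIV, 5 of the 19 neuron markers tested were lower in ES by the spread-adjusted rule and 0 higher, among them Tubb3, the neuronal tubulin, at 0.316 times control (0.113 to 0.777), and Prph, an intermediate filament protein of peripheral neurons, at 0.376 (0.171 to 0.775). Of all genes, 0.13% were lower by the spread-adjusted rule at 19 DIV. At 11 DIV 9 of 19 neuron markers were higher in ES by the size rule and 0 lower, against 28.9% and 29.6% of all genes. Tac1, a peptide precursor of pain-sensing neurons, passed the spread-adjusted rule at 11 DIV at 2.82-fold (1.58 to 5.29), where 0.102% of all genes were higher. For 19 against 11 DIV, 3 of 20 were lower in ES by the spread-adjusted rule (Prph, Stmn2 and Tac1), and 0 of 19 were called in control. By that rule 0.263% of all genes were lower in ES and 0.618% were called in control. The part of neuronal RNA in the values of L1cam and Ncam1 was not tested.

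Cdh2, which encodes N-cadherin (chromosome 18), joins Schwann cell precursors to axons and to each other. It had 1161 reads in the ES library and 283 in control at 19 DIV, and 740 in ES and 564 in control at 11 DIV. Control at 19 DIV was low at 41.1 CPM, against 97.4 to 145 CPM in the other libraries. The ES library at 19 DIV was 3.54-fold higher than control, past the size rule, with a spread-adjusted interval of 0.441 to 99.8. At 11 DIV the fold of ES over control was 1.28 (0.192 to 10.0). Cdh2 at 19 over 11 DIV was 1.16 in ES (0.209 to 8.06) and 0.422 in control (0.0134 to 5.66), and the control value passed the size rule.

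Foxd3 (chr4:99656299-99658622, plus strand) encodes a transcription factor of neural crest and early glial cells that keeps them from becoming neurons or pigment cells. It had 1839 reads in the ES library and 1007 in control at 19 DIV, and 645 in ES and 550 in control at 11 DIV. The levels were 230 CPM in ES and 146 in control at 19 DIV, and 109 CPM in ES and 94.9 in control at 11 DIV. How many of all genes are likewise higher in both libraries at 19 DIV is not given here. In ES the library at 19 DIV was 2.12-fold higher than at 11 DIV, past the size rule (spread-adjusted 0.449 to 15.5), and in control it was 1.54-fold higher (0.253 to 13.1). ES over control was 1.58 at 19 DIV (0.429 to 6.82) and 1.15 at 11 DIV (0.151 to 9.61). Foxd3 had too few reads to pass the spread-adjusted rule in any comparison.

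S100b (chr10:76253853-76261159, plus strand) had 0 reads in the ES library and 49 in control at 19 DIV, and 1118 in ES and 719 in control at 11 DIV. Both libraries at 19 DIV were low, at 0 CPM in ES and 7.11 in control, and both at 11 DIV were high, at 189 CPM in ES and 124 in control. The share of all genes that are ordered by day in this way is not given here. In control, 19 DIV was at 0.0573 times 11 DIV, with a spread-adjusted interval of 4.57e-09 to 2.18. In ES, with the 0 put at the floor of 3 reads, the level at 19 DIV came to 502-fold lower. That value is set by the floor and is not a bound. The 95% counting interval of the ratio ended at 0.00245 and the spread-adjusted interval at 0.999. Both day differences passed the size rule and neither passed the spread-adjusted rule. At 11 DIV ES was at 1.52 times control (0.324 to 8.45). The gene body overlaps Dip2a on the other strand by 1731 bases, but the last S100b exon, where 3' tags fall, shares 0 bases with Dip2a exons. Dip2a had 453 reads in the ES library and 552 in control at 19 DIV, and 30 in ES and 374 in control at 11 DIV.

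Glul (chr1:153899944-153909723, plus strand) encodes glutamine synthetase, with which satellite glia take glutamate out of circulation. It had 685 reads in the ES library and 332 in control at 19 DIV, and 413 in ES and 609 in control at 11 DIV. ES was the higher library at 19 DIV, with 85.8 CPM against 48.2 in control, and the lower at 11 DIV, with 69.7 CPM against 105 in control. The folds of ES over control were 1.78 at 19 DIV (0.169 to 39.2) and 0.663 at 11 DIV (0.0544 to 5.94). Those of 19 over 11 DIV were 1.23 in ES (0.113 to 22.0) and 0.458 in control (0.0212 to 5.23). The control value passed the size rule, but not with total-count scaling, where the log2 fold was -0.99. At these counts a change of several fold was not detectable.

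**Figure D1:**
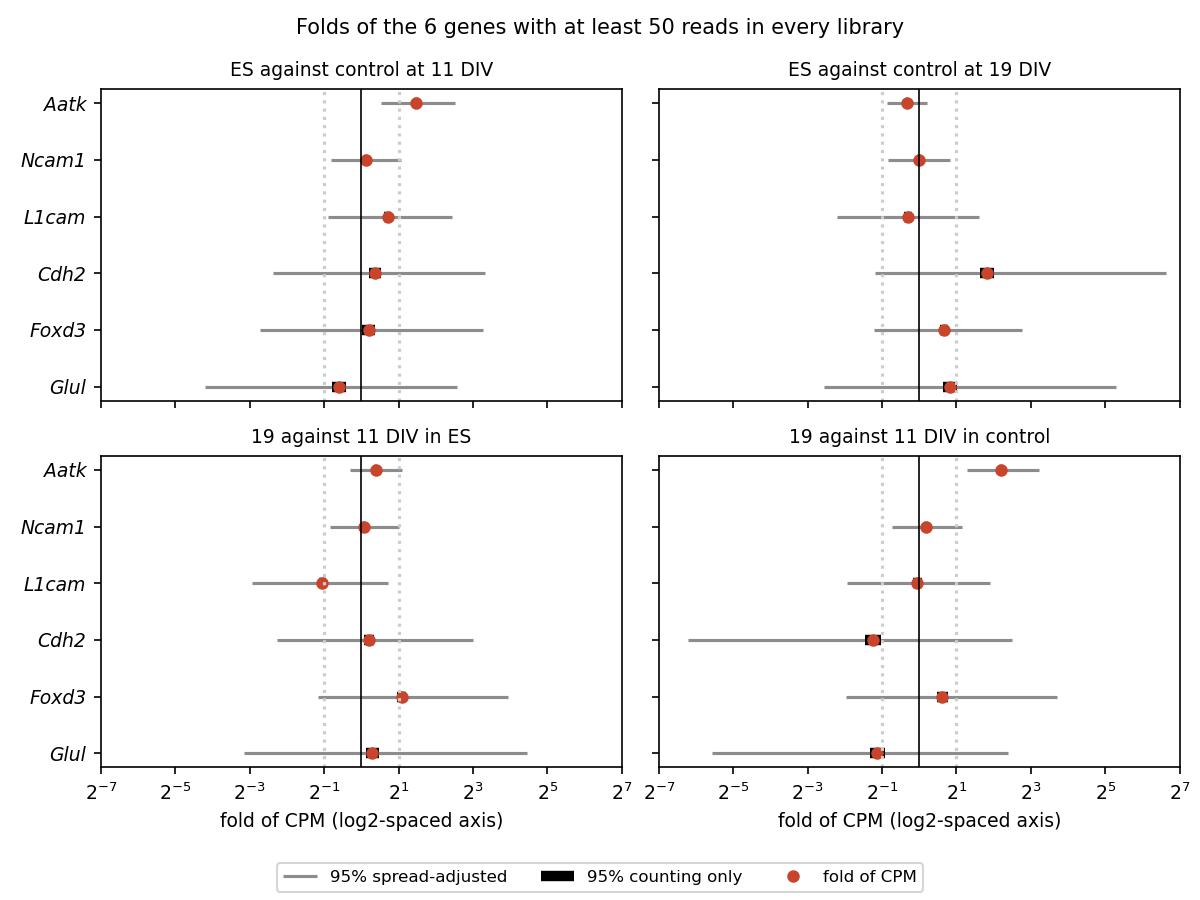
Fold of CPM (horizontal axis, log scale) for the 6 markers with at least 50 reads in every library, in the 4 comparisons, with 95% spread-adjusted intervals in grey and 95% counting intervals in black; dotted lines mark 2-fold. Of the spread-adjusted intervals, only those of Aatk for ES against control at 11 DIV (1.44 to 5.69) and for 19 against 11 DIV in control (2.43 to 9.35) exclude equality.

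Counted over the 10 markers, ES against control at 19 DIV had 7 markers with 50 reads in 1 of the libraries. By the size rule 1 was higher (Cdh2) and 1 lower (Cdh19), against a background of 60.6% of 10027 genes, 29.4% higher and 31.3% lower. By the spread-adjusted rule 0 markers were called, against 0.259% of genes, 0.13% in each direction. At 11 DIV 7 markers were tested, and Aatk alone was higher by both rules. The background there was 58.6% of 9834 genes by the size rule, 28.9% higher and 29.6% lower, and 0.315% by the spread-adjusted rule, 0.102% higher and 0.214% lower. In ES, 19 against 11 DIV had 1 of 7 markers higher (Foxd3) and 2 lower (L1cam and S100b) by the size rule, against 61.4% of 9884 genes, 30.9% higher and 30.5% lower. The spread-adjusted rule called 0 markers, against 0.425% of genes, 0.162% higher and 0.263% lower. In control, 2 of 8 markers were higher at 19 DIV (Aatk and Cdh19) and 3 lower (S100b, Cdh2 and Glul) by the size rule, against 60.8% of 10025 genes, 30.9% higher and 29.8% lower. Aatk alone was higher by the spread-adjusted rule, against 0.618% of genes, 0.16% higher and 0.459% lower. The share of markers past the size rule was below that of all genes in 3 comparisons and near it in the last, where 5 of 8 passed. The median log2 difference of the markers tested was 0.00 for ES against control at 19 DIV and 0.36 at 11 DIV, and 0.22 in ES and 0.07 in control for 19 against 11 DIV. For all genes tested the medians were -0.04 for ES against control at 19 DIV and -0.03 at 11 DIV, and 0.03 in ES and 0.02 in control for 19 against 11 DIV.

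A model over all 4 libraries asked what both days or both treatments shared. edgeR's quasi-likelihood test with ES and day as additive factors and 1 residual degree of freedom tested 10050 genes, 7 markers among them. For ES it called 0 genes and 0 markers at an adjusted p of 0.05, or 0% of genes, with 112 genes and 0 markers under an unadjusted p of 0.05. For day it also called 0 genes and 0 markers, with 204 genes and 1 marker, S100b, under an unadjusted p of 0.05. limma called 0 genes, with 568 for ES and 702 for day under an unadjusted p of 0.05, and DESeq2 called 503 genes (5%) for ES and 832 (8.28%) for day, and none of the markers was among them. The fitted day difference of Aatk was 1.29 on the log2 scale (SE 0.56), higher at 19 DIV in both treatments, with an edgeR adjusted p of 1. That of Foxd3 was 0.85 (SE 0.61) and that of Ncam1 0.13 (SE 0.38), each with an edgeR adjusted p of 1. The S100b value was -7.15 (SE 2.42, edgeR adjusted p of 1) and depends on how a count of 0 is treated. For day the adjusted p depended on the tool. DESeq2 gave 0.0508 for Aatk and 0.0773 for S100b, and limma gave 0.822 and 0.165. For ES the largest fitted difference among markers with reads in every library was that of Cdh2, 1.09 (SE 0.85, edgeR adjusted p of 1).

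Other genes of these lineages were read in the same pairs of libraries. In these pairs the size rule called 28.9% to 30.9% of all genes higher and 29.6% to 31.3% lower, and the spread-adjusted rule called 0.259% to 0.618%. Counts of a list near those shares say little about the list. In control, 10 of 23 tested Schwann lineage genes outside the 10 markers were higher at 19 than at 11 DIV and 3 lower by the size rule, with a median log2 difference of 0.47. Those past the spread-adjusted rule included the cell cycle regulator Id2 at 4.18-fold and the promyelinating factor Pou3f1 at 3.88-fold. In ES the same list had 8 higher and 3 lower by the size rule and 0 by the spread-adjusted rule. ES against control gave 6 higher and 1 lower of 23 at 19 DIV with 0 past the spread-adjusted rule, and 4 higher and 4 lower of 20 at 11 DIV by the size rule. Myelin genes, some of which are also in that list, had 13 of 16 higher in control at 19 DIV than at 11 DIV and 0 lower by the size rule. Pmp22, a membrane protein of peripheral myelin, passed the spread-adjusted rule there at 3.78-fold (1.73 to 9.42). In ES against control they had 2 higher and 3 lower of 16 at 19 DIV and 10 higher and 1 lower of 15 at 11 DIV.

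Of the other satellite glia genes, Apoe, a lipid carrier, was past the spread-adjusted rule in the same pairs of libraries as Aatk. It was at 0.702 times control in ES at 19 DIV (0.437 to 1.12) and 2.24-fold higher in ES than in control at 11 DIV (1.27 to 4.08). In control it was 2.19-fold higher at 19 than at 11 DIV (1.23 to 4.08), and in ES the fold was 0.686 (0.410 to 1.14). Dbi, a binding protein of acyl-CoA and the most abundant gene of that list, lay between 0.875 and 1.04 times its comparator in all 4 comparisons. By the size rule the list had 3 higher and 5 lower of 15 in ES against control at 19 DIV, and 4 higher and 6 lower of 16 at 11 DIV. For all genes the shares were 29.4% higher and 31.3% lower at 19 DIV, and 28.9% and 29.6% at 11 DIV. Kcnj10, the potassium channel of satellite glia, had 504 reads in the ES library and 1534 in control at 19 DIV, and 5 in ES and 63 in control at 11 DIV. It was named after its values were seen.

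Other adhesion genes gave 2 higher and 6 lower of 22 in ES against control at 19 DIV and 12 higher and 3 lower of 21 at 11 DIV by the size rule, with 0 past the spread-adjusted rule at either day. The size rule called 29.4% of all genes higher and 31.3% lower at 19 DIV, and 28.9% and 29.6% at 11 DIV. The spread-adjusted rule called 0.259% of all genes at 19 DIV and 0.315% at 11 DIV, so 0 calls in a short list say little. Chl1, a close relative of L1cam, was at 1.19 times control in ES at 19 DIV (0.681 to 2.12) and 1.76 times at 11 DIV (0.851 to 3.79). Ctnnb1, beta-catenin, which binds the tail of cadherins, was at 0.813 times control at 19 DIV (0.457 to 1.44) and 0.651 at 11 DIV (0.336 to 1.23). Cdh1, which encodes E-cadherin, a junction protein within myelinating Schwann cells, had 2532 reads in control at 19 DIV and 92 at 11 DIV, past the spread-adjusted rule. In control 10 of 21 genes of the list were higher at 19 DIV and 1 lower by the size rule, and in ES 4 were higher and 6 lower of 21. For all genes the shares were 30.9% higher and 29.8% lower in control, and 30.9% and 30.5% in ES.

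**Figure D2:**
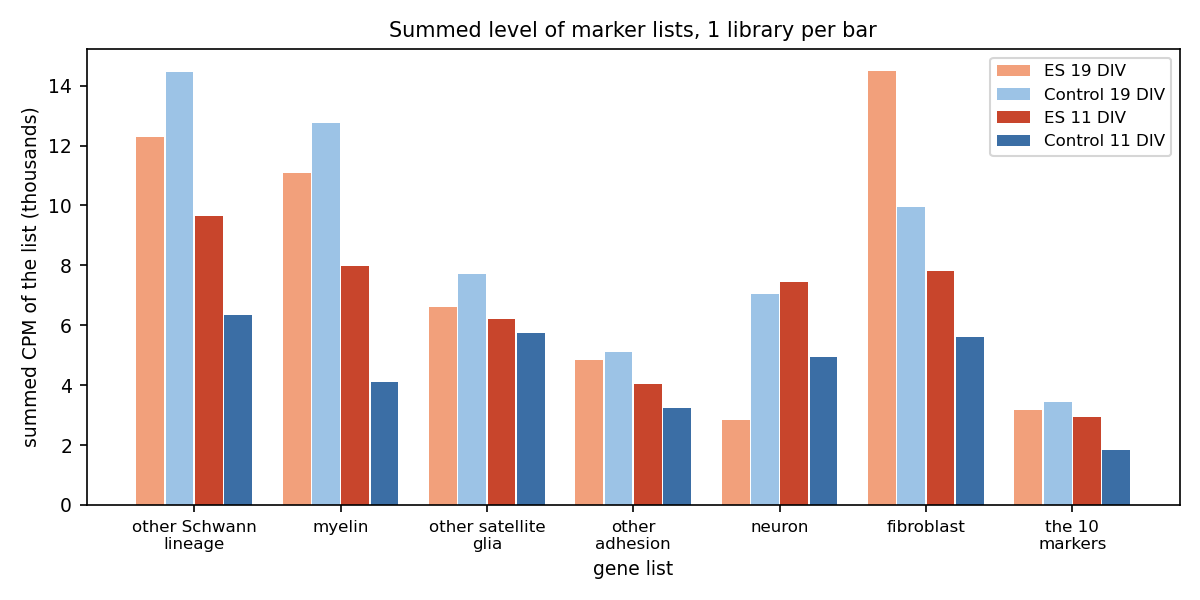
Summed CPM (vertical axis, in units of 1000) of 7 gene lists (horizontal axis), 1 bar per library. The neuron list is lowest in ES at 19 DIV (2851 CPM) and the fibroblast list highest there (14493 CPM), while the 10 markers sum to 1843 to 3446 CPM.

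Markers of other cell types were read beside the 10 markers. Fibroblast genes, 15 in all, summed to 14493 CPM in ES and 9954 in control at 19 DIV, and to 7822 in ES and 5604 in control at 11 DIV. Type I collagen genes were at 1.49 times control in ES at 19 DIV for Col1a1 (1.11 to 2.02) and 1.24 times for Col1a2 (0.995 to 1.54). Fn1, which encodes the matrix protein fibronectin, had 3592 reads in the ES library and 447 in control at 19 DIV, past the spread-adjusted rule, and Col1a1 in ES and Col1a2 in control passed it as higher at 19 than at 11 DIV. Proliferation genes summed to 1034 CPM in ES and 1346 in control at 19 DIV, and 1462 in ES and 953 in control at 11 DIV. None of the 18 passed the spread-adjusted rule in any comparison, a rule that called 0.259% to 0.618% of all genes. Of these 18 only Top2a, with 1364 to 2591 reads, reached 1616 reads in any library. No gene could pass as higher with fewer, even against 0 reads, so the lack of calls says little. Lists of macrophage (77.1 to 149 CPM), endothelial (60.9 to 105 CPM) and astrocyte or oligodendrocyte genes (56.3 to 273 CPM) were low in every library. Aqp4, Gjb6, Olig1 and Olig2, defining genes of central glia, had 0 reads in all 4 libraries. The 2 most abundant genes of the astrocyte or oligodendrocyte list, Pdgfra and Cspg4, did have reads. At 19 DIV Pdgfra had 695 in ES and 560 in control, and Cspg4 had 936 and 326. At 11 DIV Pdgfra had 109 in ES and 113 in control, and Cspg4 had 387 and 66. The part of these other cells in the values of the 10 markers was not tested.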

How the data were processed

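The authors deposited 1 table of whole-number read counts by gene symbol for each library, and no row was blank. Per the labels, RNA was taken with Trizol and 500 ng went into QuantSeq 3' libraries. Bowtie2, bedtools and mm10 stand in the submitters' processing notes. Versions, any use of strand and duplicate handling were not given in the sources used here.

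Counts were scaled with TMM (edgeR 4.0.16, R 4.3.3). Folds of 2 libraries carry Clopper-Pearson intervals. The additive model used filterByExpr, which left out Fabp7, Gfap and Cdh19, and Benjamini-Hochberg adjustment at 0.05. Log2 differences used a prior count of 2. DESeq2 1.42.0, limma 3.58.1, other scalings and other minimums were alternatives. The fold and model procedures were tested on simulated data with less spread than these libraries had. Those tests do not show how well the procedures work on these libraries. Gene positions came from GENCODE M21 (GRCm38, the assembly of mm10). Python 3.11.15 and scipy 1.17.1 computed the intervals.

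The markers, the other lists and the rules were chosen with earlier results of these data known. All 10 markers are described. Of each other list, the rule names the 2 genes with the highest mean CPM and any past the spread-adjusted rule. Lists that were low throughout are given mainly as sums. Some genes that the rules name are not reported here.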

Additional observations from a re-analysis of the deposited data

Results flagged for a closer look

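Some markers passed the size rule in 1 comparison and pointed the other way in the matching one. Aatk in ES was at 0.793 times control at 19 DIV and 2.78 times control at 11 DIV, and the fold at 11 DIV was 3.50 times that at 19 DIV (1.69 to 7.24). For 19 against 11 DIV, Cdh2 was at 1.16 in ES against 0.422 in control, and the ratio of these folds was 2.76 (0.200 to 38.0). Glul was at 1.23 in ES against 0.458 in control, with a ratio of 2.69 (0.160 to 45.1). The intervals for Cdh2 and Glul include equality. With 1 library per group, none of these differences was tested over replicates.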

How the results depend on the processing

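No paired analysis was possible because each group is 1 library and the labels carry no replicate numbers. Leaving out a library leaves the additive model no residual degrees of freedom. For 19 against 11 DIV in control, Aatk stayed past the spread-adjusted rule under all 12 alternatives. For ES against control at 11 DIV it did so under all but a 3-fold minimum, where 0 markers passed either rule. By the size rule ES against control at 19 DIV gave 2 markers, against 4 at a 1.5-fold minimum, 4 with no minimum of reads and 1 at a minimum of 200 reads. At 11 DIV it gave 1, against 4 at a 1.5-fold minimum and 2 with no minimum of reads. For 19 against 11 DIV a 3-fold minimum gave 1 marker in ES in place of 3, and 3 in control in place of 5. A 95% spread-adjusted interval gave 1 marker in ES, S100b, in place of 0. Without S100b, an alternative chosen after seeing the data, the counts were within 1.5 times those given. Over all genes the spread-adjusted rule called 18 to 92 genes for ES against control at 19 DIV and 14 to 81 at 11 DIV, and 27 to 90 in ES and 33 to 123 in control for 19 against 11 DIV. DESeq2 called 503 genes for ES and 832 for day, where edgeR called 0. Scaling by total counts moved the median of all genes for ES against control at 11 DIV to 0.10 (-0.03 with TMM), and L1cam for day in control to 0.08 (-0.05 with TMM) on the log2 scale. It also took Glul for day in control below 2-fold, which left 4 markers past the size rule in place of 5. Of 204 recomputed log2 values of markers, 7 moved by more than their counting error and 0 reversed a call. The few molecules behind most markers limit what could be detected to very large differences or to none.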
